A study of Mus musculus with 6 samples.

Results

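The liver X receptors and retinoid X receptors, together with 6 classic targets that move sterols and phospholipids, were followed in livers of mice lacking Atp7b and of wild type mice. The 10 genes were taken by name: the receptor genes Nr1h2, Nr1h3, Rxra and Rxrb, the sterol exporters Abca1, Abcg5 and Abcg8, and the further targets Mylip, Lpcat3 and Pltp. Each matched 1 of the 41388 gene identifiers in the count table, and all 10 passed the filter on low counts, as did 12988 genes in all. The samples were 3 livers labelled Atp7b-/- and 3 labelled wild type, from 6-week-old mice of both sexes on the mixed strain C57BL x 129S6/SvEv, and every group ate the same diet with 16 ppm copper. Atp7b encodes the copper-transporting ATPase of hepatocytes; the labels name the null genotype and not which exons were disrupted. Whole liver was sequenced with reads of 54 bases, single-end in 4 libraries and paired-end in Atp7b-/- replicate 3 and wild type replicate 1.

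LXRs are nuclear receptors that bind oxysterols, and they sit on DNA as heterodimers with an RXR at paired receptor sites spaced by a few bases. When sterols accumulate, LXR target genes carry cholesterol out of cells, into high-density lipoprotein or into bile, limit uptake of low-density lipoprotein, and remodel membrane phospholipids. In the liver, LXR alpha (Nr1h3) and RXR alpha (Rxra) are known as the main hepatocyte forms, whereas LXR beta (Nr1h2) and RXR beta (Rxrb) are made in most tissues.

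Total counts were 5919389 to 25973968 per library, and the 10 genes had between 110 and 12254 counts in every library. The lowest, 110 counts of Pltp in wild type replicate 3, has an exact 95% Poisson interval of 90.4 to 133, which covers counting error only. Atp7b itself stood at 19.2, 13.8 and 13.3 CPM (counts relative to the library total, scaled by TMM) in Atp7b-/- livers 1 to 3 (numbered by replicate), against 25.3, 85.2 and 59.7 CPM in wild type livers 1 to 3. Sex-linked transcripts went against the label in 2 libraries. Atp7b-/- replicate 3, labelled female, had 126 CPM of the Y-linked gene Ddx3y and 0.482 CPM of Xist, which is made from the inactive X chromosome. Wild type replicate 3, also labelled female, had 27.99 CPM of Ddx3y and 17.4 CPM of Xist, against 0.34 and 371 CPM in wild type replicate 2, the other wild type library labelled female. The libraries labelled male had the male pattern. Ddx3y stood at 29.5, 37.7 and 161 CPM in Atp7b-/- replicates 1 and 2 and wild type replicate 1, and Xist at 0.117, 0.702 and 1.01 CPM. Values without the 2 libraries that go against their labels are given beside each of the 10 genes and for some other genes. The fits have a layout term, so without either paired-end library the genotypes are compared in the single-end libraries only. Without both libraries that go against their labels, wild type replicate 1 is the only paired-end one and drops out of the comparison. Atp7b-/- replicates 1 and 2 then stand against wild type replicate 2 alone. That library has the female pattern, so genotype cannot be told apart from sex there. The share of mitochondrially encoded counts was 4.09% and 4.15% in the single-end Atp7b-/- libraries against 2.5% and 2.57% in the single-end wild type ones, and 8.14% against 7.74% in the paired-end ones; its part in the results was not tested.

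None of the 10 genes was called different between Atp7b-/- and wild type livers in edgeR's quasi-likelihood test with layout and genotype as terms (adjusted p over all genes 0.133 to 0.989), where 2.49% of all tested genes were called at an adjusted p under 0.05, 1.9% as higher and 0.585% as lower. By DESeq2 1 of the 10 was called, Mylip, beside 5.93% of all genes, and by limma-voom none, beside 3.05%. At an unadjusted p under 0.05 there were 4, Rxra, Abcg5, Abcg8 and Mylip, beside 14.5% of all genes. The log2 fold changes, Atp7b-/- over wild type, ran from -0.71 to 0.11 with a median of -0.51, beside -0.01 over all genes tested, and 9 of 10 were negative, beside 50.9% of all genes. The sign was the same in both layouts for 6 of 10, beside 58.1% of all genes. The CPM ranges of the genotypes overlapped for all 10 genes when the layouts were pooled, and were apart for 8.51% of all genes. Within the single-end libraries, 7 of the 10 genes had both Atp7b-/- values below both wild type values and none had them above, beside 22.6% and 23.5% of all genes. Both single-end Atp7b-/- libraries are labelled male and both single-end wild type ones female, so genotype and labelled sex cannot be told apart there. The labels do not state that each library is a separate animal, so every p-value here measures the spread between libraries, which may be partly technical.

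**Figure D1:**
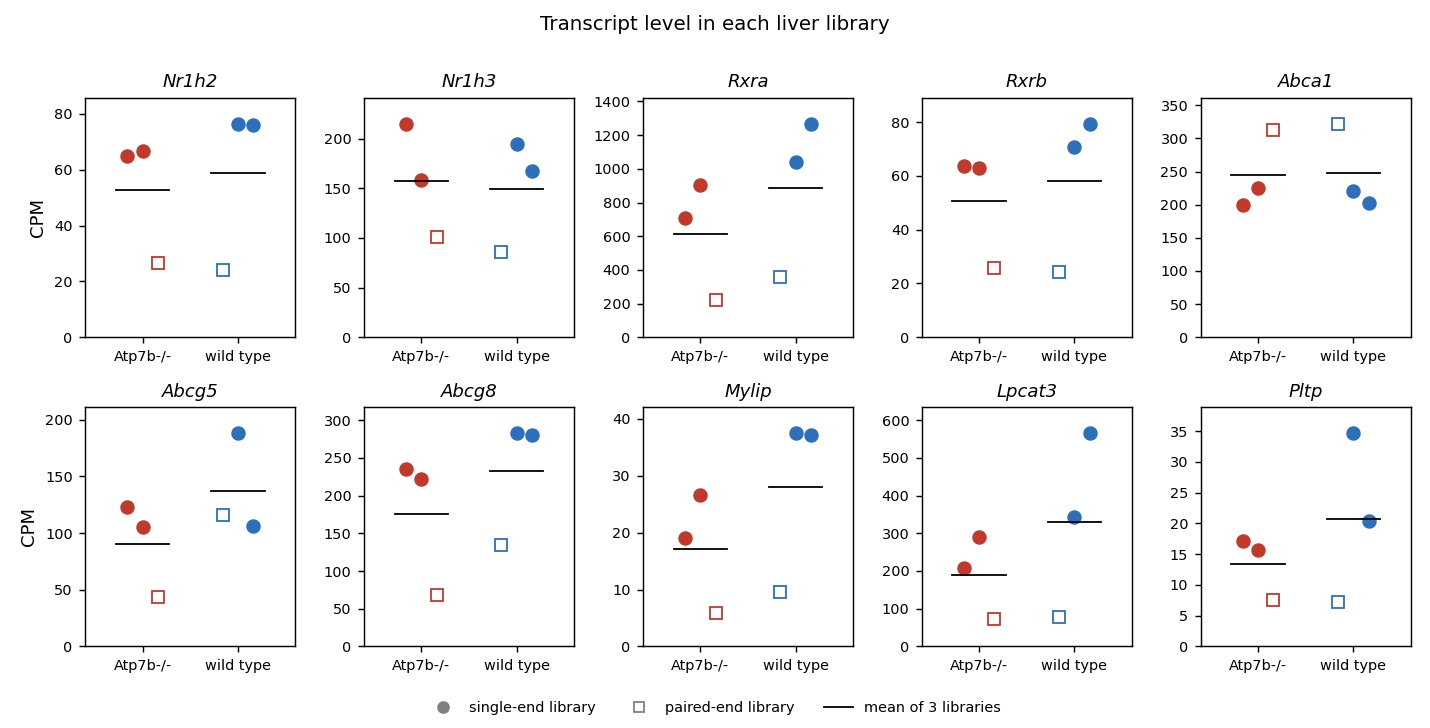
CPM of each of the 10 genes (vertical axis, linear, from 0) in the 3 Atp7b-/- libraries on the left and the 3 wild type libraries on the right. Circles are single-end libraries, open squares paired-end ones, and bars the mean of 3 libraries; for every gene except Abca1 the paired-end library is the lowest of its Atp7b-/- group.

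The layout of the sequencing separated these genes more than the genotype did. With genotype in the model, paired-end libraries were lower for 8 of the 10 genes and higher for Abca1 at an adjusted p under 0.05 (edgeR), 9 of 10 in all, beside 52.8% of all genes, 25.7% lower and 27.2% higher. The differences, paired-end minus single-end, lay between -2.16 for Lpcat3 (SE 0.32, adjusted p = 0.000745) and 0.58 for Abca1 (SE 0.19, adjusted p = 0.0279), and that of Abcg5 was -0.83 (SE 0.32, adjusted p = 0.056). A mean over 3 libraries therefore mixes these levels, and the fold changes below come from the model with layout as a term. The genotype difference itself was not shown to vary between the layouts: the interaction was called for none of the 10 genes and none had an unadjusted p under 0.05, and it was called for 0.0154% of all genes. Each paired-end library is fitted exactly in that model, so its error comes from the single-end libraries alone and a real difference could go uncalled. Since sex as labelled follows the genotype in opposite directions in the layouts, this interaction cannot be told apart from a difference between the labelled sexes. By the sex-linked transcripts, both paired-end libraries had the male pattern, as did every Atp7b-/- library. The wild type libraries did not all have it, so genotype is partly confounded with sex as expressed.

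Among the receptors, Rxra had the lower level in Atp7b-/- livers in both layouts, and the other three did not move by more than their errors. Rxra (ENSMUSG00000015846, chromosome 2, 27676440 to 27762957, plus strand, GRCm38), the obligate partner of LXR and of several other lipid-sensing receptors, stood at 709, 903 and 223 CPM in Atp7b-/- livers 1 to 3, against 357, 1041 and 1267 CPM in wild type livers 1 to 3. Every Atp7b-/- library lay below the wild type libraries of its own layout. Its log2 fold change was -0.57 (SE 0.21, adjusted p = 0.245), which is a ratio of 0.673 with a 95% interval of 0.485 to 0.933. It was -0.52 in the single-end and -0.68 in the paired-end libraries, -0.50 without Atp7b-/- replicate 3, -0.50 without wild type replicate 3 and -0.37 without both of these.

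Nr1h3 (ENSMUSG00000002108, chromosome 2, 91184061 to 91202834, minus strand), which encodes LXR alpha, was the only one of the 10 with a positive fold change. It stood at 215, 158 and 101 CPM in Atp7b-/- livers 1 to 3, against 86.0, 194 and 167 CPM in wild type livers 1 to 3. The single-end Atp7b-/- values lie on either side of both wild type ones. The log2 fold change was 0.11 (SE 0.20, adjusted p = 0.863; ratio 1.08, 95% interval 0.787 to 1.47), and it was 0.06 without Atp7b-/- replicate 3, 0.06 without wild type replicate 3 and -0.06 without both.

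Nr1h2 (ENSMUSG00000060601, chromosome 7, 44549616 to 44553951, minus strand), which encodes LXR beta, stood at 64.9, 66.8 and 26.8 CPM in Atp7b-/- livers 1 to 3, against 24.2, 76.5 and 76.0 CPM in wild type livers 1 to 3. Rxrb (ENSMUSG00000039656, chromosome 17, 34031812 to 34038399, plus strand), which encodes RXR beta, stood at 63.7, 63.0 and 25.7 CPM in Atp7b-/- livers 1 to 3, against 24.2, 70.9 and 79.3 CPM in wild type livers 1 to 3. Both genes were lower in Atp7b-/- among the single-end libraries and slightly higher in the paired-end pair. Over all libraries the log2 differences were -0.09 (SE 0.18, adjusted p = 0.866; ratio 0.937, 95% interval 0.707 to 1.24) for Nr1h2 and -0.13 (SE 0.18, adjusted p = 0.8; ratio 0.911, 0.686 to 1.21) for Rxrb. Nr1h2 was at -0.20 without Atp7b-/- replicate 3, -0.07 without wild type replicate 3 and -0.22 without both, and Rxrb at -0.23, -0.06 and -0.16 in the same settings. The intervals reach from about 0.7 to 1.2 times the wild type level, so equal levels in the genotypes were not shown.

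Scaled to exon length, Rxra transcripts were the most abundant of the 10 genes in every library, and Pltp and Mylip the least, in changing order. Over all 6 libraries the mean level was 137 ± 73.7 CPM per kb of exon for Rxra, 79.3 ± 56.9 for Lpcat3, 61.0 ± 20.3 for Nr1h3, 54.4 ± 22.8 for Abcg8 and 42.0 ± 16.996 for Abcg5 (SD, n = 6). It was 23.8 ± 5.35 for Abca1, 16.7 ± 7.15 for Nr1h2, 13.7 ± 5.94 for Rxrb, 6.99 ± 4.17 for Mylip and 6.68 ± 3.94 CPM per kb for Pltp. These means pool layouts whose levels differ, and the ranges over libraries of all neighbours in this order overlap. Pltp was above Mylip in 3 of 6 libraries, and Abca1 above Lpcat3 in both paired-end ones. Per exon length, Nr1h3 was 2.93 to 5.01 times as abundant as Nr1h2 in every library, and Rxra 6.31 to 11.6 times as abundant as Rxrb. The Rxra over Rxrb ratio was 8.09, 10.4 and 6.31 in Atp7b-/- livers 1 to 3, against 10.7, 10.7 and 11.6 in wild type livers 1 to 3. All 3 Atp7b-/- ratios lie below all 3 wild type ones, a pattern noticed after the values were seen and not tested.

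None of the sterol exporter genes passed the test; the fold changes of Abcg5 and Abcg8 were negative and that of Abca1 was near 0, and the difference between these genes was not tested. The promoter of Abca1 is shown because a direct repeat of the nuclear receptor site lies close to its start, and the stretch between Abcg5 and Abcg8 because these genes start back to back and are read in opposite directions. All 10 genes had at least 1 promoter window in RefSeq (GRCm38.p6), 14 windows in all, each 250 bases before to 50 bases after a start. In the first line the capitals mark the match to the relaxed DR4 element, and in the second the matches to the GATA box.
Abca1, chr4:53159896-53160145, minus strand: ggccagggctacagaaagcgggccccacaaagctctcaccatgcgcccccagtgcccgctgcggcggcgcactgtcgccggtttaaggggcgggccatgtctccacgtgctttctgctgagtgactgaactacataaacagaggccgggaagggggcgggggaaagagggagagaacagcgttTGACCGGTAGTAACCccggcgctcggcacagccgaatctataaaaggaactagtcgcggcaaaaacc
Abcg5 to Abcg8, chr17:84683012-84683120, plus strand: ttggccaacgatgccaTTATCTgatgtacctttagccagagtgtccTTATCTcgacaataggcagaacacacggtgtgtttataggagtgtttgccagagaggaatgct

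A DR4 element is a pair of the receptor site AGGTCA in the same direction with 4 bases between them. In the relaxed form, searched on both strands and spelled with the element described for ABCA1 in mind, the first base of each site and the C of the upstream site could be any base, so that it includes every strict match. It was found in 0.207% of 32851 windows of the same length and, among the 10 genes, only in Abca1, on the opposite strand at positions -67 to -53 from the start. Because the form was spelled with ABCA1 in mind, the share does not measure how unusual the match in Abca1 is. The strict form was in 0.0152% of windows and in none of these genes. The GATA box, searched as AGATAA on both strands, was in 11.2% of windows and, among the 10 genes, in Abcg5 and Abcg8, whose windows overlap and share both matches printed above. A match is a description of the letters and not a site of binding.

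Abca1 (ENSMUSG00000015243, chromosome 4, 53030787 to 53159895, minus strand), which exports cholesterol and phospholipid to apolipoprotein A-I, stood at 199.7, 224 and 312 CPM in Atp7b-/- livers 1 to 3, against 322, 219.9 and 202 CPM in wild type livers 1 to 3. Within each layout the genotypes differed by little, and the paired-end libraries were the high ones in both. The log2 fold change was -0.01 (SE 0.18, adjusted p = 0.989), a ratio of 0.993 with a 95% interval of 0.746 to 1.32. Its sign turned in 7 of 17 alternative settings, which gave -0.055 to 0.046 on the log2 scale; without Atp7b-/- replicate 3 it was 0.02, without wild type replicate 3 -0.05, and without both -0.05.

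Abcg5 (ENSMUSG00000040505, chromosome 17, 84658234 to 84683011, minus strand) and Abcg8 (ENSMUSG00000024254, chromosome 17, 84676302 to 84700333, plus strand) encode the subunits of the heterodimer that secretes sterols into bile. Abcg5 stood at 123, 105 and 44.0 CPM in Atp7b-/- livers 1 to 3, against 116, 188 and 106 CPM in wild type livers 1 to 3. Abcg8 stood at 235, 223 and 67.9 CPM in Atp7b-/- livers 1 to 3, against 135, 283 and 280.3 CPM in wild type livers 1 to 3. Both were lowest in the paired-end Atp7b-/- library, and for Abcg5 the single-end genotypes overlapped. The log2 fold change of Abcg5 was -0.71 (SE 0.29, adjusted p = 0.313; ratio 0.612, 95% interval 0.385 to 0.972) and that of Abcg8 was -0.53 (SE 0.21, adjusted p = 0.287; ratio 0.693, 0.499 to 0.962).

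Both values moved with single libraries. For Abcg5 the difference was -0.31 in the single-end and -1.39 in the paired-end libraries, and for Abcg8 -0.30 and -0.99, with no interaction called (adjusted p = 0.987 for each). Without Atp7b-/- replicate 3 the fold changes were -0.36 for Abcg5 and -0.29 for Abcg8, and without wild type replicate 1 they were -0.37 and -0.30. Both of these fits repeat the single-end comparison and are not separate checks. Without wild type replicate 3 Abcg5 was at -1.02 (adjusted p = 0.0796) and Abcg8 at -0.61. Without both libraries that go against their sex labels they were at -0.72 and -0.30. In the annotation an Abcg8 transcript starts inside Abcg5 on the other strand, and the genes share 82 exonic bases, 3.02% of those of Abcg5. No source used here gives the strand setting of the counting, so reads from these bases cannot be assigned to either gene.

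**Figure D2:**
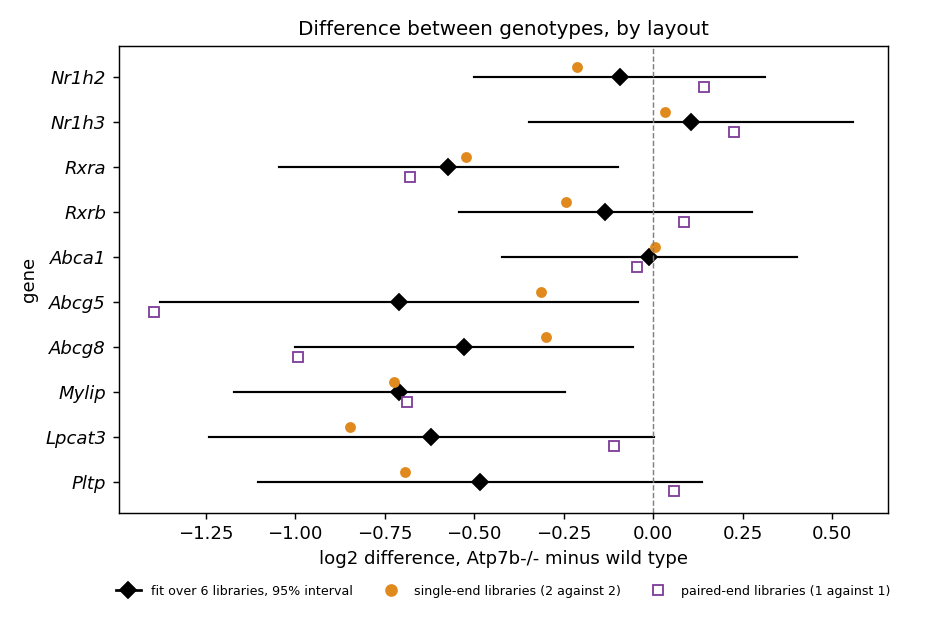
Log2 difference, Atp7b-/- minus wild type (horizontal axis), for each gene (vertical axis). Diamonds with lines are the fit over 6 libraries with its 95% interval, circles the mean difference of the 4 single-end libraries and open squares that of the paired-end pair; Abcg5 and Abcg8 lie farther left in the paired-end pair (-1.39 and -0.99), and Lpcat3 and Pltp farther left in the single-end libraries (-0.85 and -0.69).

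Of the remaining targets, Mylip had the smallest adjusted p of the 10 genes and nearly the same difference in both layouts. Mylip (ENSMUSG00000038175, chromosome 13, 45389742 to 45412022, plus strand) encodes IDOL, a ubiquitin ligase that sends lipoprotein receptors to degradation. It stood at 19.1, 26.5 and 5.85 CPM in Atp7b-/- livers 1 to 3, against 9.51, 37.5 and 37.1 CPM in wild type livers 1 to 3. In each layout every Atp7b-/- value was below every wild type value. Its log2 fold change was -0.71 (SE 0.20, adjusted p = 0.133; ratio 0.612, 95% interval 0.444 to 0.842), with -0.72 in the single-end and -0.69 in the paired-end libraries. It was -0.70 without Atp7b-/- replicate 3, -0.71 without wild type replicate 3 and -0.72 without both. DESeq2 called it (log2 fold change -0.73, adjusted p = 0.0383), and over the 17 alternatives the adjusted p ran from 0.0383 to 1.

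Lpcat3 (ENSMUSG00000004270, chromosome 6, 124663027 to 124704418, plus strand) puts polyunsaturated fatty acids into membrane phospholipids. It stood at 207, 289 and 71.6 CPM in Atp7b-/- livers 1 to 3, against 77.2, 344 and 566 CPM in wild type livers 1 to 3. The single-end genotypes were apart, with wild type replicate 3 far above the rest, and the paired-end pair was nearly level. The log2 fold change was -0.62 (SE 0.27, adjusted p = 0.344; ratio 0.651), and leaving out wild type replicate 3 gave -0.32, Atp7b-/- replicate 3 -0.86 and both of these -0.47. Lpcat3 shares 10.2% of its exonic bases with the overlapping gene Emg1, whose own log2 fold change was 0.04 (SE 0.21).

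Pltp (ENSMUSG00000017754, chromosome 2, 164839518 to 164857711, minus strand) encodes the plasma protein that moves phospholipids between lipoproteins. It stood at 17.1, 15.7 and 7.58 CPM in Atp7b-/- livers 1 to 3, against 7.27, 34.7 and 20.4 CPM in wild type livers 1 to 3. Wild type replicate 2 was the highest library, and the paired-end pair was level. Over all libraries the log2 fold change was -0.48 (SE 0.27, adjusted p = 0.475; ratio 0.715, 95% interval 0.465 to 1.10). Leaving out wild type replicate 2, the library with the female pattern of sex-linked transcripts, gave -0.14. Leaving out Atp7b-/- replicate 3 gave -0.74, wild type replicate 3 -0.61, and both of these -1.07. Pltp shares 19.3% of its exonic bases with the overlapping lysosomal gene Ctsa, which is more abundant and had a log2 fold change of -0.24 (SE 0.20).

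**Figure D3:**
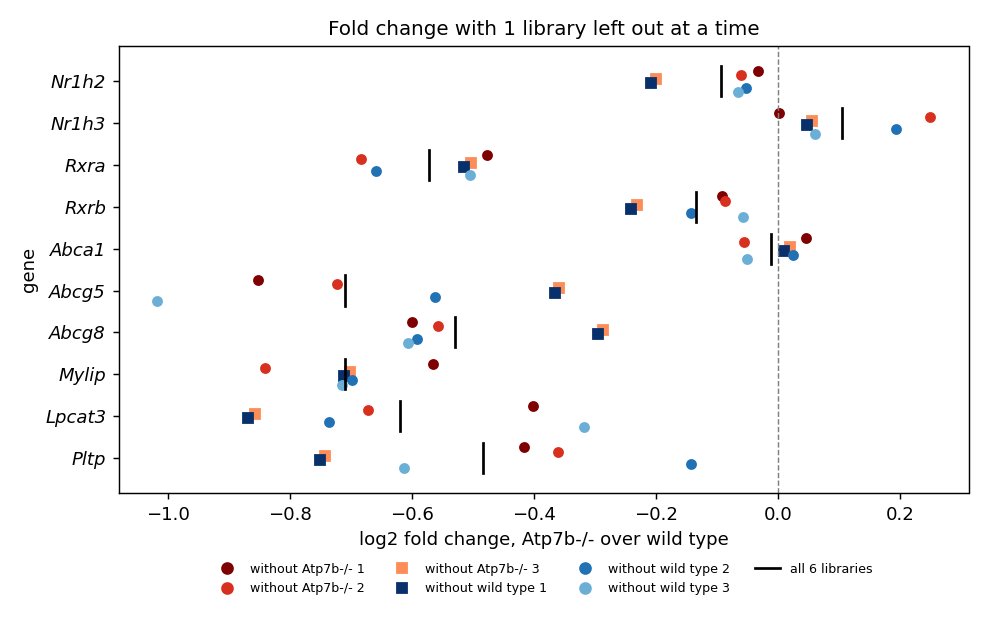
Log2 fold change of each gene with 1 library left out at a time (coloured points; squares mark the paired-end libraries) and with all 6 libraries (black bar). Mylip and Rxra stay between -0.84 and -0.48, Abcg5 spans -1.02 to -0.36, and Pltp -0.75 to -0.14. Both squares of a gene rest on the single-end comparison alone.

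Leaving out 1 library at a time moved no gene past the threshold, and the spans of the fold changes differed between genes. They were widest for Abcg5, Pltp and Lpcat3 and narrowest for Abca1, Nr1h2 and Rxrb. Taken as values centred within each layout, the member most like Rxra over the 6 libraries was Mylip (Pearson's r = 0.95), that most like Abcg5 was Abcg8 (0.87) and that most like Nr1h2 was Rxrb (0.87). Rxrb itself was most like Lpcat3 (0.88). Such likeness is common with 6 libraries. Among 12724 genes Mylip ranked 199 in likeness to Rxra, Abcg8 ranked 314 to Abcg5, and Rxrb ranked 411 to Nr1h2. The most alike were Pkp4 for Rxra, C2cd2l for Mylip, Tagap1 for Abcg5 and Bcas3 for Abcg8, each with r near 1. Of the other members, Nr1h3 was the least like Rxra (-0.67). The libraries share layout, depth and genotype, so these coefficients are descriptions and carry no p.

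Other genes of the pathway were taken from lists written beside the 10 members. Of 27 further LXR targets tested, edgeR called Lpl higher and the other 26 did not differ past the threshold, with a median log2 fold change of -0.14. Lpl, which encodes the lipoprotein lipase that splits triglycerides, stood at 58.9, 99.3 and 296 CPM in Atp7b-/- livers 1 to 3, against 89.9, 12.8 and 17.6 CPM in wild type livers 1 to 3. It was higher in Atp7b-/- within each layout, with a fitted difference of 2.15 in log2 units over all libraries (SE 0.28, edgeR adjusted p = 0.00449). The call remained without Atp7b-/- replicate 3 (0.0326), where only the single-end libraries compare the genotypes, and without wild type replicate 3 (0.0197). It was lost with the layout term dropped, where no gene was called. The lipogenic regulator Srebf1 had 214 ± 70.6 CPM in Atp7b-/- and 479 ± 257 CPM in wild type livers (SD, n = 3 each). Its log2 fold change was -1.002 (SE 0.26, edgeR adjusted p = 0.0997), and edgeR called it with no filter on low counts (0.00231). Without both libraries that go against their sex labels, which leaves wild type replicate 2 alone on its side, it was at -1.38. Fasn, which encodes fatty acid synthase, was at -0.76 (SE 0.22; adjusted p = 0.143). DESeq2 called 4 of these 27 genes: Lpl, Srebf1, Fasn and Cyp2b10. Cyp2b10, a cytochrome P450 of drug metabolism, was at 2.61 in log2 units (SE 0.66, edgeR adjusted p = 0.133). It was called by edgeR without wild type replicate 2 (0.017) and with no filter (4.09e-10).

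Of 19 coregulators of nuclear receptors 1 fell and 18 did not pass the test, with a median of -0.08. Ppargc1b, a coactivator of several nuclear receptors, stood at 17.5, 19.2 and 1.72 CPM in Atp7b-/- livers 1 to 3, against 6.08, 39.8 and 41.3 CPM in wild type livers 1 to 3. It was lower in Atp7b-/- within each layout and fell, with a fitted difference of -1.35 in log2 units (SE 0.22; edgeR, adjusted p = 0.0129). The call was lost without Atp7b-/- replicate 3 (0.0983), without wild type replicate 1 (0.0883) and in the single-end libraries alone (0.0821), which all compare the single-end libraries only. It was also lost without both libraries that go against their sex labels, where wild type replicate 2 stands alone on its side. The related coactivator Ppargc1a was at -0.88 in log2 units (SE 0.33; adjusted p = 0.267) and the acetyltransferase gene Ep300 one of -0.41 (SE 0.18, adjusted p = 0.339).

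The substrates and partners of IDOL held no called gene among 8 tested by edgeR, with a median of -0.56, but 3 had an unadjusted p under 0.05, and DESeq2 called 2, Vldlr among them, and limma-voom none. Vldlr, which encodes a receptor for triglyceride-rich lipoproteins, had 8.67 ± 2.93 CPM in Atp7b-/- and 19.9 ± 6.91 CPM in wild type livers (SD, n = 3 each; log2 fold change -1.13, SE 0.33, adjusted p = 0.142), and edgeR called it with no filter on low counts (0.00232). Among 14 other RXR partners tested none was called by edgeR, DESeq2 or limma-voom and 1 had an unadjusted p under 0.05, the xenobiotic receptor Nr1i3 (-0.80, SE 0.29, adjusted p = 0.238). Nr1i3 was called lower by edgeR with no filter on low counts (adjusted p = 0.0257). Without both libraries that go against their sex labels, which leaves wild type replicate 2 alone on its side, Nr1i3 was at -1.41. The bile acid receptor Nr1h4 stood at 122 ± 9.36 CPM in Atp7b-/- and 146 ± 7.87 CPM in wild type livers (SD, n = 3 each; log2 fold change -0.26, SE 0.18, adjusted p = 0.564). Nr1h4 is counted in this list and also among the further LXR targets.

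Enzymes that make or remove the oxysterol ligands did not pass the test in edgeR (9 tested, median 0.22, 1 with an unadjusted p under 0.05, 1 called by DESeq2 and none by limma-voom). The one DESeq2 called was Cyp46a1, the cholesterol hydroxylase best known from brain, which was near 1.04 CPM in Atp7b-/- and 3.13 CPM in wild type livers (edgeR, adjusted p = 0.071; 0.0257 with no filter on low counts). Cyp27a1, which hydroxylates the sterol side chain, was at -0.37 in log2 units (SE 0.19; adjusted p = 0.435). Among the genes of sterol traffic and high-density lipoprotein none of 19 was called by any of the 3 tools, 2 had an unadjusted p under 0.05 and the median was -0.22. The acyltransferase Lcat, which esterifies cholesterol on the particle, was at -0.54 (SE 0.20, adjusted p = 0.268), and Apoa1, its main protein, at -0.52 (SE 0.26, adjusted p = 0.401). Of 8 lysophospholipid acyltransferases besides Lpcat3 none was called by these tools, none had an unadjusted p under 0.05, and the median was -0.21.

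**Figure D4:**
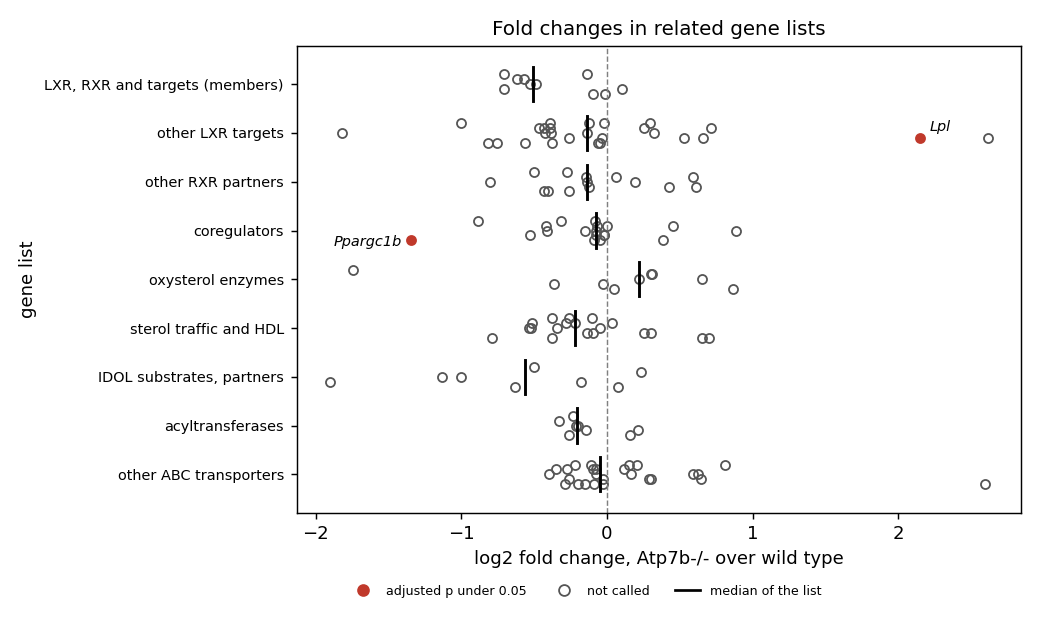
Log2 fold change, Atp7b-/- over wild type (horizontal axis), of every tested gene of each list (rows; points are spread vertically for visibility). Filled points passed the test (Lpl at 2.15 and Ppargc1b at -1.35), open points did not, and bars are the list medians, which run from -0.56 for IDOL substrates and partners to 0.22 for oxysterol enzymes.

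Marker genes placed the libraries as liver, and no marker of any cell type list was called by edgeR; signs are given beside the 50.9% of all genes that were negative. All 10 hepatocyte markers were detected in every library, with summed levels of 52031 to 76593 CPM in Atp7b-/- and 71858 to 120446 CPM in wild type livers. Of these 10 markers, 8 had negative fold changes. Within each layout the Atp7b-/- sums were below the wild type ones. They were 52031 and 65335 against 71858 and 93773 CPM in the single-end libraries, and 76593 against 120446 CPM in the paired-end pair. Alb was the largest part of the sum in every library. The 10 endothelial markers summed to 236 to 561 CPM in Atp7b-/- and 251 to 799 CPM in wild type livers, and to 502 and 561 against 685 and 799 CPM in the single-end libraries, with 9 of 10 negative. The 13 Kupffer cell markers overlapped between genotypes (286 to 487 against 264 to 574 CPM; 8 of 13 negative), and none of them was at 0 in any library. No marker of these 3 lists was called by edgeR, DESeq2 or limma-voom; at an unadjusted p under 0.05 there were 1, 3 and 0. The stellate markers (9 tested, 4 negative) and cholangiocyte markers (6 tested, 2 negative) summed to 341 to 445 and 59.9 to 97.7 CPM in Atp7b-/- livers, against 279 to 714 and 42.6 to 61.1 CPM in wild type livers. The 714 CPM was wild type replicate 1, the only paired-end wild type library, where Acta2 stood at 146 CPM and Des at 97.5 CPM. In the other libraries Acta2 was at most 6.67 CPM and Des at most 10.9 CPM. For both lists edgeR called none and DESeq2 1, the cholangiocyte marker Sox9. Leukocyte markers were sparse (9.44 to 20.0 CPM against 9.08 to 18.0 CPM), with Ly6g and S100a8 among those at 0 in some libraries. In whole liver, fewer cells of a type and less RNA per cell cannot be told apart, and the part of these shifts in the values of the 10 genes was not tested.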

How the data were processed

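RNA of 6 mouse livers was counted per Ensembl gene. The authors' deposited table holds raw counts, 1 column per library, with no normalization and no summary lines. STAR 2.4, featureCounts, edgeR 3.8 and the build GRCm38 are named in the submitters' processing notes. No source used here gives the annotation release, the strand setting or the handling of read pairs and multi-mapping reads, so values of overlapping genes are uncertain.

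Symbols, coordinates and exon lengths came from GENCODE M21 (GRCm38). Counts were analysed with edgeR 4.0.16 in R 4.3.3: filterByExpr at a minimum count of 10, TMM scaling, and robust quasi-likelihood tests of genotype beside a layout term. Benjamini-Hochberg adjustment ran over 12988 genes, and calls need an adjusted p under 0.05. A standard error is the log2 fold change over the root of its F statistic, and 95% intervals use the t distribution with the fit's degrees of freedom. Levels are CPM. Layout separates an initial single-end data set from a later paired-end one, per the series' design text, and each holds both genotypes. Replicate numbers follow deposition order and pair no samples. Alternatives used DESeq2 1.42.0, limma 3.58.1, other scalings, filters and terms, and left-out libraries. The main edgeR fit was tested on simulated counts, with no filter on low counts, and the other steps were not. The members and lists were chosen with earlier results of these data known. Named genes are all members, and of each other list the called genes and up to 4 with the smallest p, not all of which are given. Some genes of the other lists are counted there but not reported here by name.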

Additional observations from a re-analysis of the deposited data

How the results depend on the processing

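Of the 10 genes, 8 kept the sign of their fold change in all 17 alternative settings; Abca1 and Nr1h3 did not. Abca1, at -0.01, was at 0.038 with upper quartile scaling, 0.022 with no filter on low counts, 0.011 in the single-end libraries alone, 0.046 without Atp7b-/- replicate 1, 0.02 without Atp7b-/- replicate 3, 0.01 without wild type replicate 1 and 0.03 without wild type replicate 2; its lowest value with 1 library left out was -0.055, without Atp7b-/- replicate 2. Nr1h3, at 0.11, was at -0.058 without both libraries that go against their sex labels, a setting added after seeing the data. Lbp, a relative of Pltp, was at -0.23 (edgeR, adjusted p = 0.775). With 1 library left out, Lbp ran from -0.45 without wild type replicate 3 to 0.15 without wild type replicate 2. Its lowest value over the 17 alternatives was -0.75. The single-end setting and those that leave out a paired-end library make the same comparison, so they are not separate turns of the sign. The cause of these turns was not tested.

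The number of called members was 0 in each edgeR and limma-voom setting and 1 with DESeq2. Over all genes the count was 323, and it was 1116 with no filter on low counts, 770 with DESeq2, 126 in the single-end libraries alone, and 0 with no layout term (545 genes at an unadjusted p under 0.05) and 0 with labelled sex replacing layout (381 genes). With 1 library left out the count was 119 to 323 and the member count 0; the lowest values were 119 without Atp7b-/- replicate 3, 131 without wild type replicate 1 and 208 without Atp7b-/- replicate 1. The median log2 fold change of all genes was -0.01 with TMM, -0.03 with RLE and 0.04 with upper quartile scaling. There were 3 libraries a genotype and at least 110 counts of each of the 10 genes in every library.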

Other observations

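Among 26 other ABC transporters of liver none was called by edgeR or limma-voom, 4 had an unadjusted p under 0.05, and DESeq2 called Abca8b and Abcb1b. Abcb1b, which encodes a multidrug exporter, stood at 17.4, 19.5 and 127 CPM in Atp7b-/- livers 1 to 3, against 5.21, 6.29 and 6.30 CPM in wild type livers 1 to 3. All Atp7b-/- libraries were above all wild type ones, at 2.59 in log2 units (SE 0.72; edgeR, adjusted p = 0.193), and the paired-end Atp7b-/- library was far above the others. Without wild type replicate 1, where only the single-end libraries compare the genotypes, it was called by edgeR (adjusted p = 0.0357). In the single-end libraries its difference was 1.53 in log2 units. Abcb1b was not called without Atp7b-/- replicate 3 or in the single-end libraries alone, which make the same comparison. It was at 1.55 without both libraries that go against their sex labels, and over the alternatives the adjusted p ran from 0.000275 to 0.6. Abca8b was at 0.65 in log2 units (SE 0.19; edgeR, adjusted p = 0.133). The family of lipid-binding proteins to which Pltp belongs left 1 tested gene, Lbp, at 84.2 ± 36.1 CPM in Atp7b-/- and 102 ± 64.9 CPM in wild type livers (SD, n = 3 each).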
